A study of Mus musculus with 6 samples.

Results

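The sirtuins are a family of enzymes that remove acyl groups from lysines of proteins, and mouse 3T3 fibroblasts hold 7 genes for them, Sirt1 to Sirt7. Their rows were found by the gene name in the count table, where they are 7 of 41819 genes. The table comes from 1 experiment with 6 samples, 3 of control cells and 3 of hPARG cells, in which poly(A) RNA was sequenced and counted per gene. Both groups were grown from a single puromycin-resistant clone of 3T3 cells that carries a lentiviral cassette for human PARG (hPARG). The cassette is under the TetOne promoter, which is switched on by doxycycline. The paper describes it as also holding the nuclear fluorescent protein mClover3, although its name for the sequenced clone leaves mClover3 out. The hPARG samples received 500 ng/ml doxycycline for 72 h, and the control samples carried the same cassette and received none. The effect of hPARG, of mClover3 where present and of doxycycline itself therefore cannot be told apart. Each culture is called a dish below, as in the methods, although the labels speak of wells of a 6-well plate. The dishes were replicates of 1 clone, so a p-value measures the spread between dishes only.

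PARG removes poly(ADP-ribose), the chain that poly(ADP-ribose) polymerases build from NAD+. Sirtuins use NAD+ as a co-substrate in each round of deacylation and release nicotinamide, so that both families of enzymes draw on the same pool. Sirt1, Sirt6 and Sirt7 are found mainly in the nucleus, Sirt2 mainly in the cytosol, and Sirt3, Sirt4 and Sirt5 in mitochondria. The comparison asks whether the RNA of these genes differed between hPARG and control cells, and in what amounts the 7 RNAs were present in this clone.

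All 7 genes encode an NAD+-binding loop that matches 1 amino acid pattern, and the coding bases for it are shown side by side. In these 42 bases, printed in the direction of transcription, capitals mark the 12 positions at which all 7 genes had the same base. The stretch was found by searching each coding sequence for that amino acid pattern. The pattern fixes most of the capital positions in advance, so they do not measure how alike the genes are, and they raise the pair counts below. The bases were read from GRCm38 with the GENCODE release M21 annotation, and in Sirt1, Sirt2, Sirt3, Sirt6 and Sirt7 the stretch is joined across an intron.
Sirt1: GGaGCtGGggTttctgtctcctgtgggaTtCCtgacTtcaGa
Sirt2: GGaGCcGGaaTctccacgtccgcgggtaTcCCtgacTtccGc
Sirt3: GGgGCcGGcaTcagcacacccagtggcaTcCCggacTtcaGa
Sirt4: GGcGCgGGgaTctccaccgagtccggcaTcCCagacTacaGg
Sirt5: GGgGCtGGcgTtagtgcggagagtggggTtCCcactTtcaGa
Sirt6: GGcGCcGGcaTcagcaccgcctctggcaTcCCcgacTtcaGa
Sirt7: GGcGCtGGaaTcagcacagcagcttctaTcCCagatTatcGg
The closest pair was Sirt3 and Sirt6, with the same base at 36 of 42 positions, and the most distant pairs were Sirt1 with Sirt7 and Sirt2 with Sirt5, each with 18. No run of 31 bases was shared between the annotated transcripts of any 2 sirtuin genes. Counts of 1 sirtuin were therefore not open to exact matches of that length from another.

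Reads from other genes were a separate matter. Of the 31-base runs of Sirt5, 16.4% also occurred in transcripts of other genes, Wdr31 and Xpnpep1 among them, and of those of Sirt3 12.1% did, nearly all of them in Ric8a and Psmd13. The share was 0% in Sirt4 and between 0.43% and 3.05% in Sirt1, Sirt2, Sirt6 and Sirt7.

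In GRCm38 the gene Sirt1 (ENSMUSG00000020063) lies on chromosome 10 at 63319005 to 63381704, minus strand. Sirt6 (ENSMUSG00000034748) lies on the same chromosome at 81621785 to 81627797, minus strand. Sirt2 (ENSMUSG00000015149) at 28766735 to 28788661, plus strand, and Sirt3 (ENSMUSG00000025486) at 140863666 to 140882309, minus strand, are both on chromosome 7. Sirt4 (ENSMUSG00000029524) lies on chromosome 5 at 115478010 to 115484725, minus strand. Sirt5 (ENSMUSG00000054021) lies on chromosome 13 at 43365496 to 43395203, plus strand, and Sirt7 (ENSMUSG00000025138) on chromosome 11 at 120618372 to 120625240, minus strand. All 7 are annotated as protein coding.

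Exons of 4 sirtuins overlapped exons of other genes. Sirt3 shared 760 exon bases, 12.7% of its annotated exons, with Ric8a and Psmd13, which lie on the opposite strand at its 2 ends. Sirt7 shared 178 bases (3.46%), of which 124 were with Mafg on the same strand. Sirt1 shared 65 bases (1.22%) with the antisense gene Gm16145, which had 0 counts in all 6 dishes, and Sirt2 shared 42 bases (0.834%) with Nfkbib on the opposite strand. Whether strand was used in counting is not given in the sources used here, so reads from these stretches cannot be assigned to one gene with certainty. By these shares the values of Sirt3 are the most exposed. The shares are of all annotated exons, and the overlap within the exons of coding transcripts, a shorter length used below, was not computed.

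The gene counts of a dish summed to 21619908 at the lowest and 25263818 at the highest. A floor of 3 counts was worth 0.117 to 0.141 CPM, the count per library total after TMM scaling. This floor reflects counting error alone, because reads without molecular identifiers are not independent molecules. Fibroblast genes were present (8 of 8 markers, summed level 7160 to 8330 CPM in control and 8260 to 9480 CPM in hPARG dishes), while the summed levels of leukocyte, endothelial and epithelial markers lay between 0.039 and 1.33 CPM in each dish, and the macrophage marker Adgre1 was at 0. The hPARG transgene was not analysed here, and the mouse gene Parg, whose RNA says nothing about induction of the human cDNA, had a log2 fold change of 0.04 ± 0.11 (SE).

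Of the 7 sirtuin RNAs, 6 were detected well above the floor in every dish, at 2.16 to 15.6 RPKM, and Sirt5 was at the floor. Levels between genes are compared as the deposited RPKM, which divides counts by gene length and library size. In control cells Sirt7 was the most abundant at 13.8 ± 2.82 RPKM (SD, n = 3), and Sirt2 followed at 11.4 ± 1.01 RPKM. Next came Sirt6 at 4.38 ± 0.0494 RPKM, Sirt3 at 3.68 ± 0.671 RPKM, Sirt1 at 3.08 ± 0.561 RPKM and Sirt4 at 2.92 ± 0.682 RPKM. Sirt5 was last at 0.0353 ± 0.0256 RPKM, from 2 to 6 counts a dish, too few for a ratio to the others.

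The order in hPARG cells differed at a single place. Sirt7 was at 12.5 ± 1.79 RPKM (SD, n = 3), Sirt2 at 12.4 ± 0.844 RPKM, Sirt6 at 4.67 ± 0.522 RPKM and Sirt3 at 3.28 ± 0.69 RPKM. Sirt4 at 3.16 ± 0.309 RPKM then stood before Sirt1 at 2.56 ± 0.526 RPKM, and Sirt5 was last at 0.0386 ± 0.0221 RPKM. Since the ranges of Sirt1 and Sirt4 overlapped in both groups, this exchange is within the spread between dishes.

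Only some neighbours in the order were separated by their dish values. Sirt7 and Sirt2 overlapped in both groups. Sirt2 stood apart from Sirt6 in both, by 2.6 times in control and 2.65 times in hPARG cells. Sirt6 and Sirt3 overlapped in control cells, where control dish 3 of Sirt3 reached 4.46 RPKM against 4.33 to 4.43 RPKM for Sirt6, and did not overlap in hPARG cells. Sirt3, Sirt1 and Sirt4 formed a group without separation between neighbours, and Sirt5 lay apart from all others.

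**Figure D1:**
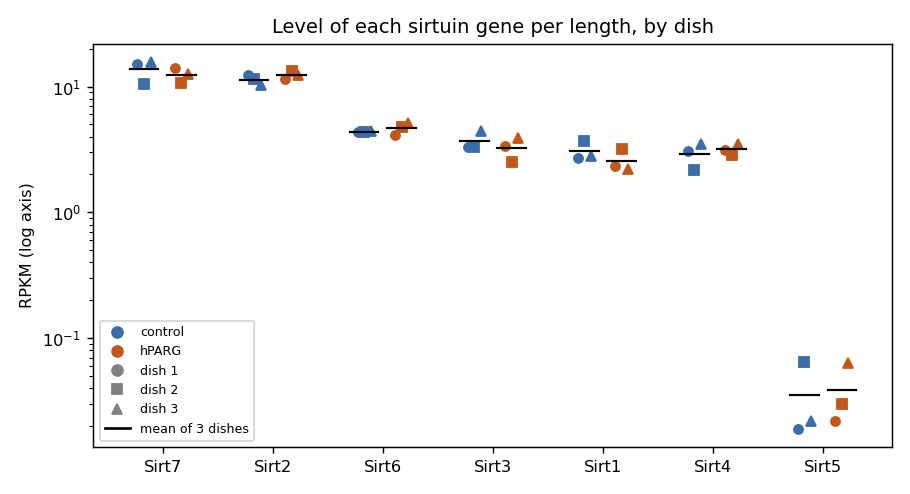
RPKM (log axis) of the 7 sirtuin genes in each of 3 control (blue) and 3 hPARG (orange) dishes, with the dish number as the shape of the point and the mean of 3 dishes as a line. Sirt7 and Sirt2 lie above 10 RPKM in all dishes, 4 genes lie between 2.16 and 5.12 RPKM, and Sirt5 stays below 0.065 RPKM.

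The length that enters these levels matters for the order. The ratio of count to RPKM matched the joined exons of coding transcripts (those annotated as protein coding or subject to nonsense-mediated decay), which for Sirt3 is 1891 of 5973 annotated exon bases, for Sirt7 1945 of 5148 and for Sirt2 2254 of 5035. With all annotated exons as the length, Sirt3 moved from the fourth to the sixth place in both groups, at 1.26 TMM-normalized CPM per kilobase in control cells against 2.82 for Sirt1. On that scale Sirt2 was at 6.1 and Sirt7 at 5.2 in hPARG cells, with Sirt2 first. Sirt5 remained last by either length. Which exons the counts cover was not tested, so the all-exon order may divide counts by bases that they do not cover.

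None of the 6 sirtuin genes that passed the filter on low counts differed between hPARG and control cells by edgeR's quasi-likelihood test with Benjamini-Hochberg adjustment over 11509 genes (0 of 6 called at an adjusted p under 0.05, 0 of 6 with an unadjusted p under 0.05, and 0 of 6 called by DESeq2). Among all tested genes edgeR called 0.0869%, 0.00869% higher and 0.0782% lower, DESeq2 called 0.452%, and 3.95% had an unadjusted p under 0.05 in edgeR. A fit with the dish number as a block called 2.87% of all genes and 0 of the 6 sirtuins, whose lowest unadjusted edgeR p there was 0.0268 (Sirt1). The dish values of the groups overlapped in all 6, while they did not overlap in 9.62% of all tested genes. The median log2 fold change over all tested genes was 0.0038, and the 10th and 90th percentiles were −0.19 and 0.21. With calls this rare among all genes, 0 of 6 says little about the sirtuins in particular, and the intervals below say more. An exact permutation test of 3 against 3 dishes cannot give a p under 0.1.

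Among the nuclear members, Sirt1, which deacetylates p53, FOXO factors and the NF-kB subunit RelA, had the largest estimated difference. It was at 13.1, 17.7 and 14.4 CPM in control dishes 1 to 3 and at 11.6, 15.5 and 11.3 CPM in hPARG dishes 1 to 3, from 247 to 411 counts. The groups overlapped, because hPARG dish 2 lay above control dishes 1 and 3, although each hPARG dish was lower than the control dish of the same number. The group means were 15.1 ± 2.36 CPM (control) and 12.8 ± 2.32 CPM (hPARG, SD, n = 3), and the log2 fold change was −0.23 ± 0.17 (SE, edgeR adjusted p = 0.999). Its 95% interval ran from −0.62 to 0.16, which leaves room for a level up to 1.54-fold lower or 1.12-fold higher in hPARG cells.

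Sirt6, a chromatin-bound deacylase with roles in DNA repair and glycolytic gene repression, was at 12.1, 11.7 and 12.9 CPM in control dishes and at 11.7, 13.4 and 15.05 CPM in hPARG dishes. The control dishes were close together, and hPARG dish 1 lay just under the lowest of them while hPARG dishes 2 and 3 lay above all 3. The log2 fold change was 0.13 ± 0.13 (SE, edgeR adjusted p = 0.999) with a 95% interval from −0.16 to 0.42.

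Sirt7, a nucleolar member that acts with RNA polymerase I and on acetylated histone H3, was at 31.6, 21.3 and 33.9 CPM in control dishes and at 30.3, 22.1 and 27.9 CPM in hPARG dishes. In both groups dish 2 was the lowest, and the distance from dish 2 to the other dishes was larger than the distance between the group means of 29.0 ± 6.71 and 26.8 ± 4.18 CPM (SD, n = 3). The log2 fold change was −0.11 ± 0.20 (SE, edgeR adjusted p = 0.999) with a 95% interval from −0.57 to 0.34. Its sign turned without control dish 3 (0.0135) and without hPARG dish 2 (0.0054).

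The cytosolic member Sirt2, a deacetylase of alpha-tubulin, varied least between dishes by the SD of log2 CPM within both groups, although Sirt6 varied less among the control dishes. It was at 29.8, 26.9 and 26.0 CPM in control dishes and at 28.6, 32.1 and 31.5 CPM in hPARG dishes, from 552 to 778 counts. Control dish 1 lay above hPARG dish 1, and hPARG dishes 2 and 3 lay above all control dishes. The means were 27.6 ± 1.97 and 30.7 ± 1.86 CPM (SD, n = 3), and the log2 fold change was 0.16 ± 0.10 (SE, edgeR adjusted p = 0.999). The 95% interval, from −0.09 to 0.40, was the narrowest of the 6 and bounds the difference at 1.06-fold lower or 1.32-fold higher in hPARG cells. Nfkbib, the gene that shares 42 exon bases with Sirt2 on the other strand, had a log2 fold change of −0.33 ± 0.10 (SE, edgeR adjusted p = 0.829, and 0.0409 with the dish number as a block), and its part in the Sirt2 counts was not tested.

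Of the mitochondrial members, Sirt3, the main deacetylase of mitochondrial proteins, was at 6.67, 6.50 and 9.43 CPM in control dishes and at 7.06, 5.15 and 8.35 CPM in hPARG dishes. The groups overlapped, with dish 3 highest and dish 2 lowest in each. The log2 fold change was −0.14 ± 0.22 (SE, edgeR adjusted p = 0.999) with a 95% interval from −0.65 to 0.38, the widest among the 6. Its sign turned without control dish 3 (0.054) and without hPARG dish 2 (0.0357). The overlapping genes Ric8a and Psmd13, with counts of 1448 to 2001 and 2992 to 4548 against 125 to 200 for Sirt3, had log2 fold changes of −0.17 and −0.08, and their part in the Sirt3 counts was not tested.

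Sirt4, which acts on glutamate dehydrogenase and on lipoyl and other acyl groups, was at 6.75, 4.603 and 7.97 CPM in control dishes and at 7.06, 6.26 and 8.03 CPM in hPARG dishes. Each hPARG dish was higher than the control dish of the same number, but the groups overlapped, and control dish 2 was the lowest of the 6. The log2 fold change was 0.14 ± 0.21 (SE, edgeR adjusted p = 0.999) with a 95% interval from −0.35 to 0.64. Without control dish 2 the estimate turned to −0.0468.

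Sirt5, which removes succinyl, malonyl and glutaryl groups, had 2, 6 and 2 counts in control dishes and 2, 3 and 6 counts in hPARG dishes. It stood above the floor of 3 counts in 1 dish of each group and at or under it in the other 4. The sums were 10 counts in control and 11 in hPARG cells. It did not pass the filter and was not tested, and no fold change is given. Counts this low could not show a fall or a small rise in Sirt5, and no hPARG dish exceeded 6 counts.

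**Figure D2:**
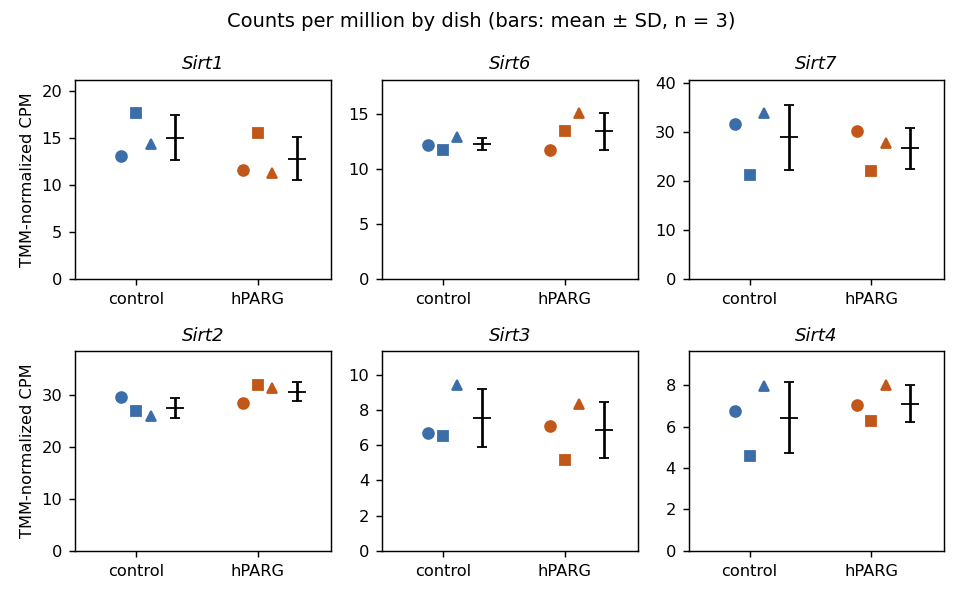
TMM-normalized CPM (axes from 0) of the 6 tested sirtuin genes in control (blue) and hPARG (orange) dishes, with the dish number as the shape of the point and mean ± SD (n = 3) as bars. The points of the groups overlap in every panel, and dish 2 (squares) is the highest of its group for Sirt1 and the lowest for Sirt3, Sirt4 and Sirt7 in both groups.

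**Figure D3:**
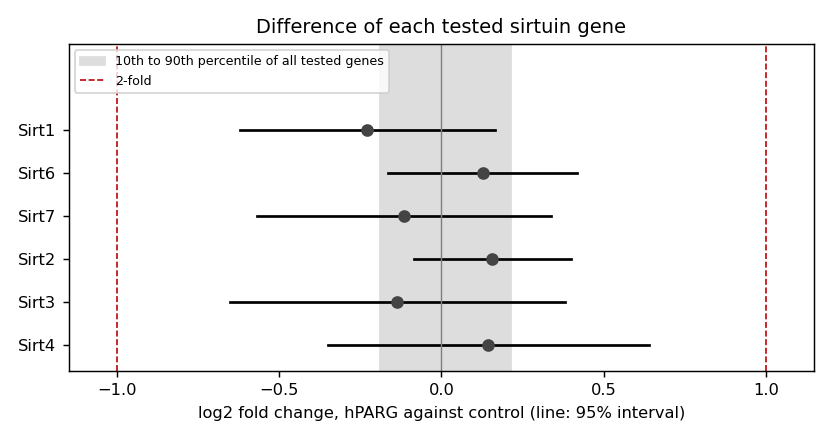
Log2 fold change (hPARG against control) of the 6 tested sirtuin genes with its 95% interval from edgeR's quasi-likelihood fit, beside the range from the 10th to the 90th percentile of all 11509 tested genes (grey) and the 2-fold lines (dashed). All 6 intervals include 0 and lie within the 2-fold lines, and the estimate of Sirt1, −0.23, is the only 1 of the 6 outside the grey range.

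The 6 intervals lie inside a 2-fold difference in either direction. The bounds reached 1.57-fold lower for Sirt3 and 1.56-fold higher for Sirt4. Of the estimates, 3 were above 0 (Sirt2, Sirt4 and Sirt6) and 3 below 0 (Sirt1, Sirt3 and Sirt7), which divided neither the nuclear nor the mitochondrial members from the rest.

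The spread between dishes differed among the members. The SD of log2 CPM within groups was 0.0951 for Sirt2 and 0.136 for Sirt6, below the median of 0.176 over tested genes of a similar level. It was 0.234 for Sirt1, 0.303 for Sirt7, 0.309 for Sirt4 and 0.324 for Sirt3, above that median.

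Some deviations went in the same direction in both groups in dishes of the same number. The 3 deviations of a gene in a group sum to 0, so a shift in 1 dish brings opposite shifts in the others. Against its group mean of log2 CPM, Sirt1 deviated by 0.24 in control dish 2 and by 0.29 in hPARG dish 2. Sirt7 deviated by −0.41 and −0.26, Sirt4 by −0.44 and −0.17, and Sirt3 by −0.19 and −0.38 in the same dishes. In the dishes numbered 3, Sirt3 deviated by 0.34 in control and 0.31 in hPARG cells and Sirt4 by 0.34 and 0.18, as far as or farther than in dish 2 except for Sirt3 in hPARG and Sirt4 in control cells. In the dishes numbered 1, Sirt1 deviated by −0.19 in control and −0.12 in hPARG cells and Sirt7 by 0.15 and 0.19. Sirt2 (−0.03 and 0.06) and Sirt6 (−0.06 and 0.01) deviated little in dish 2. Across all 11509 tested genes the deviation of dish 2 moved with exon length (Spearman's rho across genes 0.53 in control and 0.521 in hPARG cells, a description over genes that share a library). Exon length here, and in the length correction described below, was that of all annotated exons, not the shorter length that matched the RPKM. By it Sirt1 had 5331 bases, Sirt2 5035, Sirt3 5973 and Sirt7 5148, against 2398 for Sirt4 and 2785 for Sirt6. The part of this trend with length in the sirtuin values was not tested. With both dishes numbered 2 left out, an alternative chosen after the data were seen, the estimates were −0.25 for Sirt1, 0.11 for Sirt2, −0.05 for Sirt3, 0.04 for Sirt4, 0.10 for Sirt6 and −0.17 for Sirt7, each with the sign it had with all dishes.

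**Figure D4:**
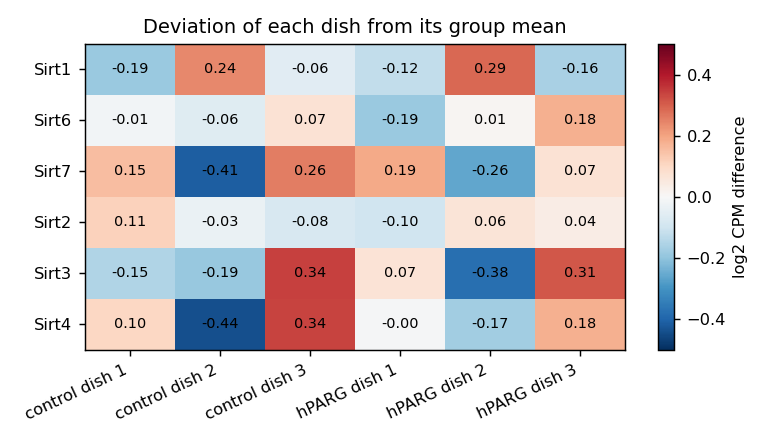
Deviation of each dish from its group mean (log2 CPM) for the 6 tested sirtuin genes in rows, with the 3 control and 3 hPARG dishes in columns; red is above and blue below the group mean. Dish 2 of both groups is high for Sirt1 and low for Sirt7, Sirt4 and Sirt3, while Sirt2 and Sirt6 stay near 0 there.

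For Sirt1, Sirt2, Sirt3, Sirt4 and Sirt6, the gene outside the family with the most similar profile over the 6 dishes was the 1 with the smallest root mean square difference of centred log2 CPM. It was Sdccag8 for Sirt1 (difference 0.0194 log2 units, where the median over all tested genes was 0.266), Uevld for Sirt2 (0.0307) and Rbp2 for Sirt3 (0.0411). It was Psmc3ip for Sirt4 (0.0457) and Ttc14 for Sirt6 (0.0299). Each was picked as the smallest difference among all tested genes, so a value below the median is fixed by the selection. Whether these genes have more in common with the sirtuins was not tested.

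The upstream sequences of Sirt1 and Sirt5 are shown because Sirt1 had the largest estimated difference and Sirt5 the lowest level. They are the parts of the 250 bases before the RefSeq gene start (GRCm38.p6) that lie outside annotated exons, in the direction of transcription, and capitals mark the E-box CACGTG and the GC box GGGCGG on either strand, some of which overlap. The first covers chr10:63339051-63339285 on the minus strand and the second chr13:43365285-43365495 on the plus strand. The RefSeq start of Sirt1 (63339035) differs from the GENCODE 5' end (63381704), so its window lies inside the GENCODE span given above.
Sirt1: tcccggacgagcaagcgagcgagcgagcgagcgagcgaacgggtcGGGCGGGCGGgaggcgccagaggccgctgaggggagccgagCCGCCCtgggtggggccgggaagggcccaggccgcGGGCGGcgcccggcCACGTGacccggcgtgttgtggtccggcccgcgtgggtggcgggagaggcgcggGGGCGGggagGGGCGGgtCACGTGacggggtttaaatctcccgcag
Sirt5: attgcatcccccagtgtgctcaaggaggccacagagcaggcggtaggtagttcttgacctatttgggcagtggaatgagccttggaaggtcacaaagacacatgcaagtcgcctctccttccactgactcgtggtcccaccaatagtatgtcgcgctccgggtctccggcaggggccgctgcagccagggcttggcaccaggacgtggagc
The window of Sirt1 had a GC content of 79.2% and 39 CpG dinucleotides, against medians of 52.4% and 6 over 32851 promoters. It held 2 E-boxes and 6 GC boxes, where 6.02% and 32.7% of all promoters held at least 1. The window of Sirt5 had a GC content of 62.8%, 13 CpG dinucleotides and 1 GC box, which lay in its exon and is not printed. No other sirtuin window held the E-box. The ratio of observed to expected CpG was 1.07 for Sirt1 and 0.53 for Sirt5, with a median of 0.37 over all promoters. Such matches describe the letters only.

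Genes around the sirtuins in the same biology were followed through 7 lists written from general knowledge, with earlier results of these data known. In each list 0 genes were called by edgeR's quasi-likelihood test and 0 by DESeq2, beside 0.0869% (edgeR) and 0.452% (DESeq2) of all tested genes. List medians are given beside the median of all tested genes, 0.0038.

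Enzymes of NAD+ supply had 9 tested genes of 14 listed, with a median log2 fold change of 0.04 and a range from −0.06 to 0.17, and none had an unadjusted p under 0.05. The lowest p values were those of Nadsyn1, NAD synthetase (0.17 ± 0.16, SE), and Nnmt, which methylates nicotinamide (0.13 ± 0.23). Of 18 regulators and partners of sirtuins 17 were tested, with a median of 0.03 and none under 0.05. Ccar2, an inhibitor of Sirt1, had a log2 fold change of −0.18 ± 0.11 (SE), and Hic1, a repressor of the Sirt1 gene, had −0.26 ± 0.19.

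Nuclear and cytosolic substrates had 33 tested genes of 36 listed and a median of 0.0055. Myc, a transcription factor deacetylated by sirtuins, was the 1 gene with an unadjusted p under 0.05, at 171, 225 and 191 CPM in control dishes and 147, 172 and 145 CPM in hPARG dishes. Its groups overlapped by a narrow margin, since hPARG dish 2 lay just above control dish 1, and its log2 fold change was −0.34 ± 0.13 (SE, edgeR adjusted p = 0.999). Rela, the NF-kB subunit that Sirt1 deacetylates, had −0.33 ± 0.16 (SE, edgeR adjusted p = 0.999). The list named mitochondrial substrates had 28 tested genes of 34 listed, a median of 0.04 and none under 0.05. Mccc1, of leucine breakdown, was at 0.18 ± 0.12 and Ppif, the cyclophilin of the permeability pore, at −0.15 ± 0.10. Lcp1 and Uox in this list and Acss1 in the list before do not match the compartment named, and none of these was tested.

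The deacetylases of the other, zinc-dependent class had 10 tested genes of 11 listed and the narrowest range of the lists, from −0.06 to 0.15 around a median of −0.0065. Hdac5 was at 0.15 ± 0.12 (SE) and Hdac2 at −0.06 ± 0.11. All 18 lysine acetyltransferases were tested, with a median of −0.01. Atat1, which acetylates alpha-tubulin and so opposes Sirt2 there, had an unadjusted p under 0.05, with a log2 fold change of 0.46 ± 0.18 (SE, edgeR adjusted p = 0.999), at 6.71, 6.19 and 8.91 CPM in control and 10.1, 8.57 and 11.2 CPM in hPARG dishes. The groups of Atat1 overlapped, as control dish 3 lay above hPARG dish 2. Hat1, a cytosolic histone acetyltransferase, was at −0.15 ± 0.10.

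Of 20 target genes of FOXO factors, which Sirt1 deacetylates, 19 were tested, with a median of 0.05 and a range from −0.62 to 0.19. The dish values of the groups did not overlap in 3 of 19 (Gadd45a, Klf6 and Bcl6, the last of which was named after its values were seen), beside 9.62% of all tested genes. In the other lists they did not overlap in 0 of 9 (NAD+ supply), 1 of 17 (regulators), 1 of 33 and 1 of 28 (nuclear or cytosolic and mitochondrial substrates), 0 of 10 (zinc-dependent deacetylases) and 0 of 18 (acetyltransferases). Gadd45a, a DNA damage response gene, was at 32.2, 56.0 and 52.8 CPM in control dishes and at 30.8, 29.8 and 31.4 CPM in hPARG dishes. Control dish 1 lay close to the hPARG dishes, and the log2 fold change was −0.62 ± 0.20 (SE, edgeR adjusted p = 0.965). Klf6, a zinc finger transcription factor, was at 141, 188 and 167 CPM in control and at 127, 127 and 133 CPM in hPARG dishes, with a log2 fold change of −0.36 ± 0.12 (SE, edgeR adjusted p = 0.999). Neither passed the adjusted threshold in this fit. With the dish number as a block the edgeR adjusted p was 0.0257 for Gadd45a, 0.0238 for Klf6, 0.00834 for Myc and 0.0164 for Rela. That fit called 2 of 19 FOXO targets and 2 of 33 nuclear or cytosolic substrates, beside 2.87% of all tested genes.

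**Figure D5:**
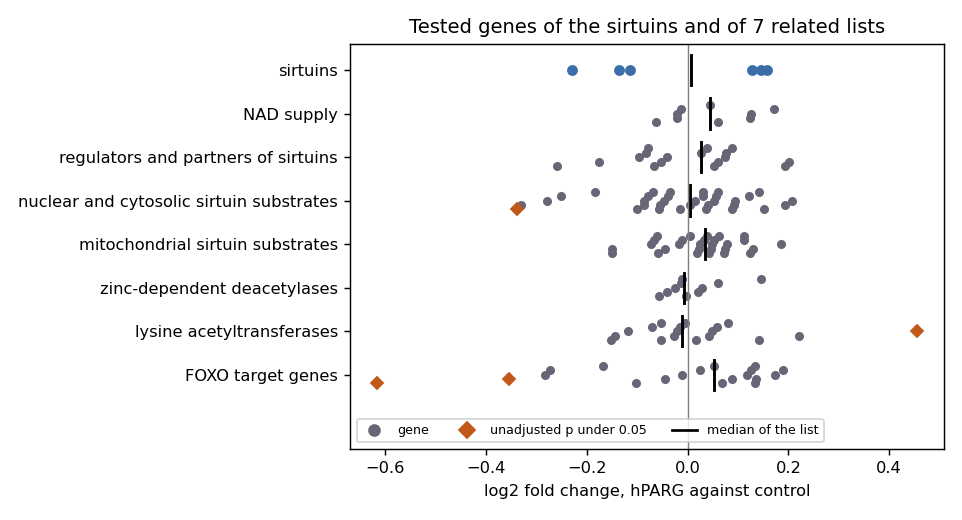
Log2 fold change (hPARG against control) of each tested gene of the sirtuins and of 7 related lists in rows, with the median as a black line and genes with an unadjusted p under 0.05 as orange diamonds. The list medians lie between −0.0104 and 0.0525, and 4 genes carry a diamond (Myc, Atat1, Gadd45a and Klf6), none of which passed the adjusted threshold in the fit without a block.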

How the data were processed

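Poly(A) RNA of 6 dishes of 1 clone of 3T3 cells was sequenced, and the authors mapped the reads to GRCm38 (Ensembl annotation) in CLC Genomics Workbench. For each gene the authors deposited raw counts, unnormalized whole numbers, and RPKM, which their software computed from counts, gene length and a library total. Their own fold changes and p-values were not used. GENCODE release M21 held the identifiers of all 41819 genes.

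Low counts were filtered by filterByExpr at a minimum count of 10, and genes were normalized by TMM and tested with glmQLFit and glmQLFTest (edgeR 4.0.16, R 4.3.3) without a block, as the methods name no pairing. Adjusted p-values are Benjamini-Hochberg over 11509 genes. The standard error was taken as the size of the log2 fold change over the square root of F. RPKM were used for levels between genes. The fits were tested on simulated data.

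Genes named beside the sirtuins are the nearest profile of each tested member (that of Sirt7 is not reported here), mouse Parg and the 2 genes of lowest p in each list. Genes named for an overlap in exons or shared 31-base runs were added from the annotation. The members and lists were chosen with earlier results of these data known. Alternatives were other normalizations (RLE, library size, upper quartile), tests (DESeq2 1.42.0, likelihood ratio), filters and thresholds, a correction for gene length, the replicate block, each dish left out, and, added after the data were seen, both dishes numbered 2 left out.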

Additional observations from a re-analysis of the deposited data

How the results depend on the processing

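In 18 alternative fits 0 sirtuin genes were called. The sign was kept in all 18 for Sirt1 (−0.39 to −0.10), Sirt2 (0.11 to 0.22) and Sirt6 (0.04 to 0.21). It turned for Sirt3 without control dish 3 (0.054) or hPARG dish 2 (0.0357), for Sirt4 without control dish 2 (−0.0468), and for Sirt7 without control dish 3 (0.0135) or hPARG dish 2 (0.0054). With 1 dish left out the estimates of these genes ran from −0.30 to 0.054 (Sirt3), from −0.0468 to 0.32 (Sirt4) and from −0.29 to 0.0135 (Sirt7). The cause was not tested.

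Of the 12 neighbour relations in the order of levels, 9 were kept with all annotated exons as the length, and 10 to 12 with 1 dish left out. Of all tested genes 10 were called, against 52 with DESeq2, 65 with the likelihood ratio test, 16 with no filter, 23 with the length correction, 40 without both dishes numbered 2, and 3 to 13 with 1 dish left out (3 without hPARG dish 1 and 5 without hPARG dish 3).

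Same-numbered dishes had correlations of their deviations of r = 0.096, 0.61 and 0.168 for numbers 1 to 3. For unlike numbers r was −0.441, −0.391, −0.352, −0.23, 0.207 and 0.335. The main fit took no pairs because the methods name none, and whether equal numbers mark pairs was not tested. With the replicate block 330 genes were called (261 in DESeq2, 469 with the length correction as well), and 0 sirtuins. Sirt1 then had an edgeR adjusted p of 0.214 (0.176 with the length correction as well), the lowest of the members. Its unadjusted p in the edgeR fit with the block was 0.0268, under 0.05 unlike in the fit without it. Of 33 tested nuclear or cytosolic substrates the block called 2 (Rela and Myc), also 2 in DESeq2, and 3 with the length correction (with Foxo3). Of 19 tested FOXO targets it called 2 (Gadd45a and Klf6), 1 in DESeq2 and 2 with the length correction. With both block and length correction, 1 of 18 acetyltransferases (Atat1) was called. Over all 11509 tested genes the edgeR block called 2.87%, and the other 2 block fits called the 261 and 469 genes given above. Whether the lists exceed these shares was not tested. After adjustment over all genes, differences of the size estimated for the sirtuins could not be told from the spread between 3 dishes a group.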

Other observations

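Several genes near Sirt5 on chromosome 13 were well above the floor. Nol7, which begins about 3 kb after the end of Sirt5 and encodes a nucleolar protein, had 1964 to 2282 counts per dish, and Ranbp9, which overlaps Nol7 on the other strand, had 1370 to 1980. Gfod1 had 953 to 1621 counts and Mcur1, a regulator of mitochondrial calcium uptake, 314 to 506, against 2 to 6 for Sirt5. Cd83, at 0 to 2 counts, and Rnf182, at 0 to 1 counts, were also at or under the floor in all 6 dishes. These genes lie within 500 kb of Sirt5 and were named after their values were seen.

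Nfkbib, which encodes an inhibitor of NF-kB and begins on the other strand inside the first part of Sirt2, was at 724, 628 and 619 counts in control and at 502, 548 and 470 counts in hPARG dishes. Its counts in all 3 hPARG dishes were below those of all 3 control dishes, while Sirt2 had an estimate of the opposite sign. The difference of Nfkbib (−0.33 ± 0.10, SE) did not pass the threshold (edgeR quasi-likelihood test, adjusted p = 0.829) but did with the dish number as a block (adjusted p = 0.0409), and the contrast between the neighbours was not tested. Nfkbib was named after its values were seen.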
